A study of Mus musculus with 4 samples.

Results

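The genes described here are 39 mouse genes of homologous recombination, the Fanconi anemia pathway and the replication checkpoint, chosen by symbol. All 39 were found among the 32285 genes of the deposited matrix. They were followed across marker-defined blood lineages and across resting, S-phase and G2/M cells, so that lineages were compared at the same stage of the cell cycle.

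Homologous recombination copies an intact sister chromatid to repair a broken or collapsed replication fork. The Fanconi pathway unhooks crosslinks between DNA strands and passes the resulting breaks to recombination, while the kinase Atr and its effector Chek1 hold the cell cycle when forks stall. Inherited loss of Fanconi genes in humans causes bone marrow failure, in which blood stem cells are lost.

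The study transplanted donor cells, marked by the CD45.2 allele of a leukocyte surface protein, in competition with other cells, and recovered the donor hematopoietic stem and progenitor cells (HSPCs) from bone marrow 20 weeks later for single-cell RNA sequencing. The donor cells were of the C57BL/6 strain, and the labels name 2 Srcap mutant samples, heterozygous per the design text, and 2 wild-type (WT) samples. Srcap is a chromatin remodeler that places the histone variant H2A.Z. The mutant allele, the age and number of the animals, the recipients and competitor cells, and the surface gate of the sort were not given in the sources used here.

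The matrix holds 4 libraries, told apart by the suffix of each cell barcode and called libraries 1 to 4 here. No label ties a library to a sample, so no genotype comparison was made and the libraries were not treated as replicates of a group. Values are given for each library, with no test. Library totals lay between 112027160 and 144385614 unique molecular identifiers (UMIs, each counting one captured RNA molecule), and 9026 to 12418 cells per library were kept, with median UMI counts between 9824 and 10226.5. A total of 209 barcode sequences occurred in more than 1 library. Library 2 held the highest level of 32 of the 38 members measured in uncommitted S-phase cells, where it held that of 61.5% of all measured genes, and ratios were taken within a library. Srcap itself lay at 58.8, 81.5, 52.7 and 53.2 CPM (UMIs scaled to a total of 1000000) in libraries 1 to 4, and a count of 3' ends does not check the genotype.

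Of the 41122 cells kept, 16690 were resting, 9442 were in S phase and 6589 in G2/M by scores of 37 S-phase and 29 G2/M genes that include no member of the set. The other 8401 cells lay between the cuts and were left out. These classes are ranges of a score, with 4134 cells within 20% of the S cut and 2285 within 20% of the G2/M cut, and 72.0% of the G2/M cells also scored at or above the S cut. Lineage classes are likewise ranges of marker scores. A gate kept 5249 stem, 3064 lymphoid progenitor, 1430 B precursor, 482 plasma cell, 1506 granulocyte, 1103 monocyte, 338 dendritic, 750 erythroid, 2675 megakaryocyte and 285 T, NK or ILC cells, and 22141 cells below every gate are called uncommitted. Stem, lymphoid, B precursor, granulocyte, monocyte, erythroid and megakaryocyte gates had 3 to 7 of their own markers among their 10 leading genes, while the plasma cell gate had 1 and the dendritic and T, NK or ILC gates had 2 each. Gates were not pure: the 10 granulocyte markers summed to a median of 9041 CPM over the libraries in the monocyte gate, against 1130 CPM for the 7 monocyte markers themselves. In uncommitted cells the erythroid, granulocyte and stem markers summed to medians of 644, 595 and 513 CPM.

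Among uncommitted cells, S-phase cells held higher levels of most of the set than resting cells did. UMIs were summed per class and library, scaled to CPM and compared within a library as the log2 ratio of CPM + 1. Median UMIs per cell lay between 13543 and 14748.5 over libraries in S phase, against 7039 to 7628 in resting cells. A CPM is a share of those totals, so a flat or lower CPM need not be a flat or lower number of molecules per cell. Levels per cell were not compared. The rule for a call was a difference of 1.5-fold or more, with one sign in 4 of 4 libraries. Of the 37 members abundant enough to measure, 24 were higher in S phase, none was lower and 13 met neither rule, where 9.29% of all 9781 measured genes were higher and 8.8% were lower. The median log2 ratio over these members was 1.56, with a range of 1.46 to 1.84 over libraries, against -0.10 over all measured genes. A member that is nearly silent in resting cells passed the abundance minimum through its S-phase level, so the count describes the measured members and not the whole set. Rad51c and Fancb were below the minimum.

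The checkpoint adaptor Clspn (claspin), which bridges Atr to its target Chek1, showed the highest ratio. Its level was 136, 171, 135 and 138 CPM in S-phase cells of libraries 1 to 4, against 2.89, 4.65, 2.69 and 3.04 CPM in resting cells, a median log2 ratio of 5.12 with a range of 4.93 to 5.21. No S-phase value approached a resting value. Chek1, the effector kinase, lay at 67.8, 79.3, 72.6 and 80.1 CPM in S phase, against 6.56, 6.61, 7.08 and 5.68 CPM in resting cells, a log2 ratio of 3.29. Topbp1, which activates Atr at stalled forks, was higher by a log2 ratio of 1.87. The kinase itself and its partner did not meet the rule: Atr had a log2 ratio of 0.39, and Atrip, which recruits Atr to single-stranded DNA, had 17.7, 21.9, 18.9 and 18.3 CPM in S phase, against 16, 19.1, 15.7 and 14.5 CPM in resting cells, a ratio of 0.22. Of the 5 genes of this axis, 3 were higher in S phase and 2, the kinase and its partner, met neither rule. Exons of Atrip overlap those of Trex1 on the same strand, and exons of Atr those of Gm24004. The deposited counts cannot separate the genes of each pair there.

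The sliding clamp that marks damaged DNA for Atr, formed by Rad9a, Rad1 and Hus1, and its loader Rad17 gave no call among 4 measured genes. Rad17 lay at 24.7, 26.2, 22.2 and 22.9 CPM in S phase, against 22.7, 25.8, 23.7 and 23.5 CPM in resting cells, and its groups overlapped. Hus1 lay at 18.0, 22.0, 16.6 and 16.9 CPM in S phase, against 16.3, 19.6, 13.2 and 14.4 CPM in resting cells, a log2 ratio of 0.19 with overlapping groups. Rad1 and Rad9a had ratios of 0.50 and 0.76. The fork protection pair was higher in full: Tipin lay at 197, 195, 229 and 201 CPM in S phase, against 30.3, 34.6, 36.4 and 30.2 CPM in resting cells, a ratio of 2.64, and its partner Timeless had a ratio of 2.69.

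Among Brca1, Brca2 and genes of like role, 4 of 5 were higher in S phase. Brca1, which with Bard1 forms a ubiquitin ligase that promotes recombination, lay at 54.0, 63.9, 46.8 and 55.4 CPM in S phase, against 1.03, 1.73, 0.768 and 1.42 CPM in resting cells, a log2 ratio of 4.67. Brca2, a large protein essential for homologous recombination, lay at 97.9, 129, 92.1 and 94.3 CPM in S phase, against 13.7, 17.7, 11.6 and 13.3 CPM in resting cells, a ratio of 2.77. Bard1 had a ratio of 2.96 and Palb2, which bridges Brca1 and Brca2, had 1.68. Rad52, known for annealing single strands, went the other way without meeting the rule: it lay at 9.41, 10.9, 9.06 and 8.08 CPM in S phase, against 12.2, 15.4, 10.4 and 11.4 CPM in resting cells, a ratio of -0.40.

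All 4 strand exchange factors and branch helicases were higher. Brip1, a helicase that binds Brca1, lay at 49.2, 65.3, 48.6 and 53.4 CPM in S phase, against 2.79, 3.15, 3.13 and 2.84 CPM in resting cells, a log2 ratio of 3.78. Rad54b, a motor protein that remodels joints between DNA molecules, lay at 17.5, 21.7, 16.9 and 17.4 CPM in S phase, against 0.361, 0.526, 0.549 and 0.473 CPM in resting cells, a ratio of 3.70. The resting values of Rad54b rest on 7, 7, 10 and 7 UMIs, and its exons overlap those of Fsbp on the same strand, so the deposited counts cannot separate both genes there. Its relative Rad54l had a ratio of 3.28, and Blm, a helicase that takes apart recombination intermediates, had 2.44.

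Rad51b, Rad51c, Rad51d, Xrcc2 and Xrcc3 form small complexes that act in homologous recombination, known as BCDX2 and CX3, and 3 of the 4 measured were higher in S phase: Rad51b with a log2 ratio of 2.49, Xrcc3 with 1.69 and Xrcc2 with 1.55. Rad51d was the exception, at 17.9, 18.1, 17.2 and 16.8 CPM in S phase, against 21.4, 22.3, 18.6 and 19.9 CPM in resting cells, a ratio of -0.24 that did not meet the rule. Rad51c, below the minimum, lay at 4.19, 5.95, 3.93 and 4.86 CPM in S phase, against 0.568, 0.676, 0.329 and 0.338 CPM in resting cells, where the values rest on 5 to 11 UMIs. End resection genes gave smaller ratios. Rbbp8 (CtIP), which starts resection, had a ratio of 1.6, and of the nuclease complex it works with, Rad50 had 1.02, Mre11a 0.82 and Nbn 0.83, the last missing the rule in library 2 with a ratio of 0.58.

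Both genes of the Fanconi complex that is ubiquitinated at crosslinks were higher. Fancd2 lay at 13.2, 16.2, 13.6 and 11.4 CPM in S phase, against 0.258, 0.901, 0.604 and 0.338 CPM in resting cells, a log2 ratio of 3.20, and its partner Fanci had a ratio of 2.69. The core complex, which carries out that ubiquitination, was mixed, with 3 of 7 measured genes higher: Fanca at 3.26, the DNA motor Fancm at 1.36 and Fancg at 0.86. Fance lay at 14.5, 15.1, 14.2 and 12.8 CPM in S phase, against 14.9, 13.9, 14.0 and 13.1 CPM in resting cells, so its groups overlapped. Fancc, Fancf and Fancl, the ubiquitin ligase subunit, had ratios of 0.45, 0.43 and 0.59. Fancb, below the minimum, lay between 6.29 and 9.64 CPM in S phase, against 0.744 to 1.45 CPM in resting cells.

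**Figure D1:**
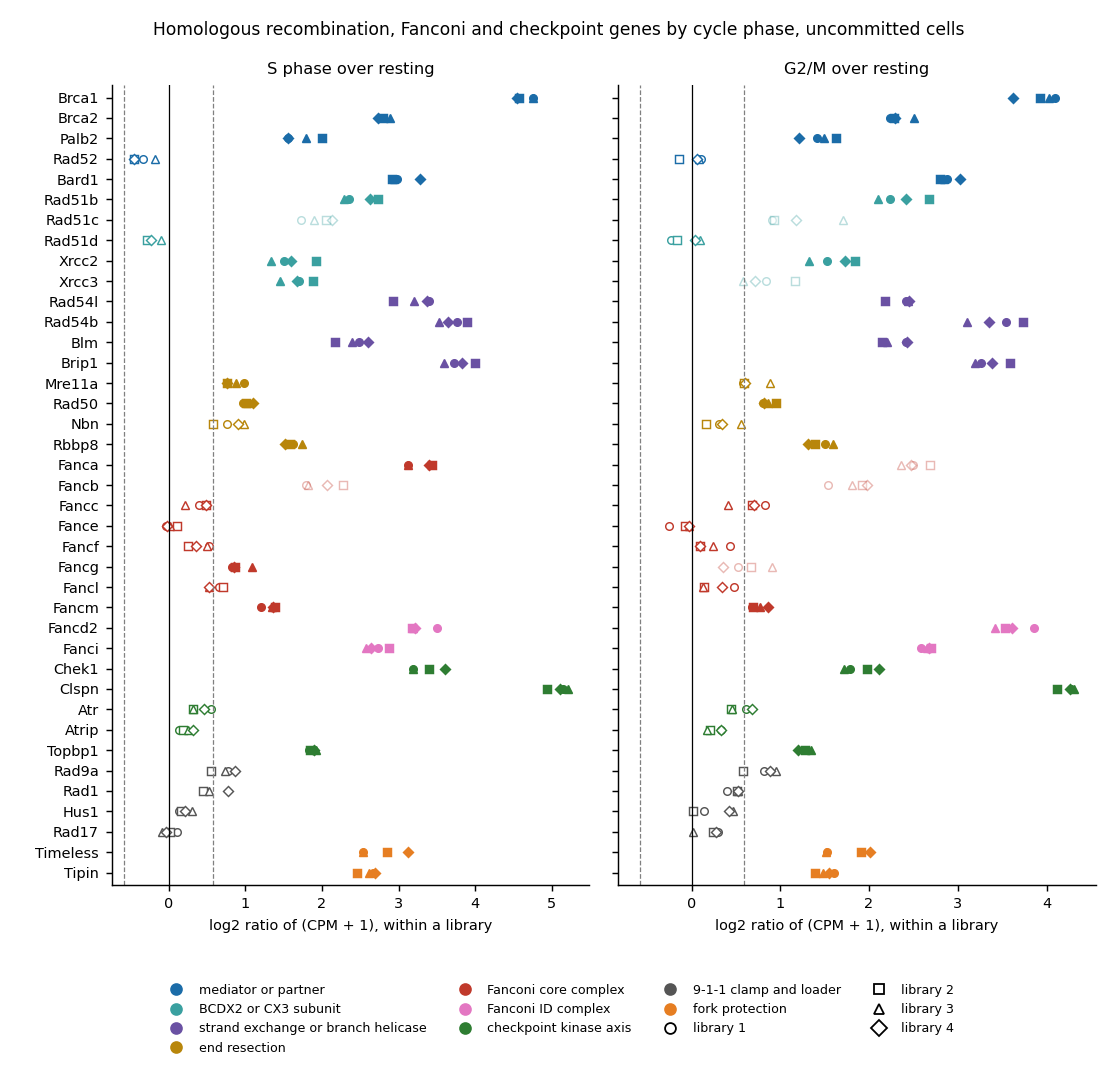
Log2 ratios of CPM + 1 in uncommitted cells (horizontal axis) for each member (vertical axis), S phase over resting at the left and G2/M over resting at the right, coloured by role with a marker shape per library; filled markers are members called, open ones are not called, pale ones are below the abundance minimum, and dashed lines mark 1.5-fold. Clspn and Brca1 lie farthest to the right for S phase over resting (median ratios of 5.12 and 4.67), while Rad52 and Rad51d lie left of 0.

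E2F factors are known to drive many S-phase genes through a site close to the start of transcription. Promoter sequences are given here as a description, and a part of such sites in the phase comparison was not tested. In 250 bases before and 50 bases after each start, from RefSeq on build GRCm38.p6, the E2F letters TTTCCCGC, TTTCGCGC, TTTGCCGC or TTTGGCGC were searched on both strands. The table held 30 of the 39 members and not Rad51d, Rad54b, Xrcc2, Rad50, Nbn, Rbbp8, Fancd2, Rad9a or Tipin. A match stood in 6 of these 30, namely Bard1, Brca2, Clspn, Fancg, Rad51c and Topbp1, where 2.6% of 27025 genes had one. Of the 18 members in the table that were higher in S phase 5 held a match, and of the 10 that were measured and not called none did. The windows of Chek1, Fancc, Fanci, Fancl and Timeless lie inside the annotated gene and do not reach its 5' end. For these genes the lack of a match does not describe the promoter at that end. Shown here, 5' to 3' on the strand of the gene, are 5 windows with the match in capitals, and those of Brca1 and Rad17 as a higher and an uncalled member without one. The Rad51c window shown belongs to 1 of its 2 listed starts and also lies inside the annotated gene, short of its 5' end. The window of the other start covers that end and holds a match too, GCGGGAAA at base 246. A match describes letters only, and no match says only that these letters are not in this window.
Clspn, chr4:126556730-126557029, plus strand: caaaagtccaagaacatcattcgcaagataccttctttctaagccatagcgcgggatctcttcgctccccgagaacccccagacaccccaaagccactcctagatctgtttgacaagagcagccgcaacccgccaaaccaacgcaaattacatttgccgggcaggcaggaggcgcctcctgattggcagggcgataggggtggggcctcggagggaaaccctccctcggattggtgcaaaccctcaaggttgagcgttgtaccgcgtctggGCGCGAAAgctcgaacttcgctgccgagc
Brca2, chr5:150522371-150522670, plus strand: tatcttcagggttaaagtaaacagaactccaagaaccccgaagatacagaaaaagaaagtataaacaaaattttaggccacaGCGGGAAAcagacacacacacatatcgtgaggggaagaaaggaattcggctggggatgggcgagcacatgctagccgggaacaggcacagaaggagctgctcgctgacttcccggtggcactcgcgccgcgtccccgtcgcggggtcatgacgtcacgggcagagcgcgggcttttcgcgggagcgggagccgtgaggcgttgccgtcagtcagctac
Bard1, chr1:71102923-71103222, minus strand: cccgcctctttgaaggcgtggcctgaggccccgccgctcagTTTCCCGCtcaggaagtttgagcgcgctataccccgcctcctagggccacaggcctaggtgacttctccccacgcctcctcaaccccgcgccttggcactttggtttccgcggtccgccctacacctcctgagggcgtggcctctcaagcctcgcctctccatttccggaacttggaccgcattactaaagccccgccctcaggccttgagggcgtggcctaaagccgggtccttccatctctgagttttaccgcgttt
Topbp1, chr9:103305077-103305376, plus strand: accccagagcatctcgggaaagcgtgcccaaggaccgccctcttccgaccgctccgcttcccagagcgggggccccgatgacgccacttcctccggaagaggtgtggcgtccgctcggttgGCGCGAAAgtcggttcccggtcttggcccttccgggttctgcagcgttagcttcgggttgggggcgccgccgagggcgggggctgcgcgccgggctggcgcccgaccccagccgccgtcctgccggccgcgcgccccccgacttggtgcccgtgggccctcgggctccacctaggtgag
Rad51c, chr11:87404457-87404756, minus strand: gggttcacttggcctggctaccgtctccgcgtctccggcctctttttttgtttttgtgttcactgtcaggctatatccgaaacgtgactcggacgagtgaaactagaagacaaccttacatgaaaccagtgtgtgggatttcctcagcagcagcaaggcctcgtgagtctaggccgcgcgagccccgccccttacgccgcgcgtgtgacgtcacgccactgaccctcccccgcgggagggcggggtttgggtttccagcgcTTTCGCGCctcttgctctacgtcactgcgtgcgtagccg
Brca1, chr11:101551906-101552205, minus strand: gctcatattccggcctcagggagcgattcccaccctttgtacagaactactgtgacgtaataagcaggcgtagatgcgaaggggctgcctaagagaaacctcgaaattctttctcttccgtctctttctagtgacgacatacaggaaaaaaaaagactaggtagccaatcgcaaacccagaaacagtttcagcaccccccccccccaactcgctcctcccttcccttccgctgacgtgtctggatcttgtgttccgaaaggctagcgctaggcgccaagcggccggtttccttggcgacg
Rad17, chr13:100651012-100651311, minus strand: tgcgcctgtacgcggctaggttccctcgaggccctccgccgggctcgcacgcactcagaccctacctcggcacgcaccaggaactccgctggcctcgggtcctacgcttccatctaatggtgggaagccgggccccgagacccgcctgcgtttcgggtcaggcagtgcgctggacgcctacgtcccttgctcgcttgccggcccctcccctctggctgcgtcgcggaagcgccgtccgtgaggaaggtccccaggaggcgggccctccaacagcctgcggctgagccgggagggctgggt

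The match began at base 272 of the 300-base window in Clspn, 83 in Brca2, 42 in Bard1, 122 in Topbp1 and 262 in Rad51c. Other motifs were common in promoters at large: CCAAT or its complement ATTGG stood in 16 of 30 members and 41.1% of genes, and the CHR element, searched as TTTGAA or TTTAAA on both strands, stood in 5 of 30 members and 30.6% of genes. Clspn and Topbp1 both read GCGCGAAA, and a link between these letters and the phase ratios was not tested.

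In G2/M cells most of these genes stayed above their resting level. Of 34 members measured, 20 were higher than in resting uncommitted cells and none was lower, where 7.53% of all measured genes were higher and 5.94% were lower, and the median log2 ratio was 1.33 against -0.02 over all genes. Clspn at 4.27, Brca1 at 3.97, Fancd2 at 3.57 and Rad54b at 3.44 had the highest ratios. The clamp genes and Rad17 gave no call among 4, and Atr and Atrip had ratios of 0.53 and 0.27.

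Set against S phase, G2/M cells had lower levels of several checkpoint, fork and recombination genes. Of 38 members measured, 8 were lower and none was higher, where 3.74% of all measured genes were lower and 4.04% were higher. Chek1 lay at 25.1, 29.0, 25.6 and 27.9 CPM in G2/M cells, against 67.8, 79.3, 72.6 and 80.1 CPM in S phase, a log2 ratio of -1.44. Tipin lay at 94.3, 92.6, 103 and 90.3 CPM in G2/M cells, against 197, 195, 229 and 201 CPM in S phase, a ratio of -1.10. Timeless had a ratio of -1.01, Xrcc3 -0.87, Clspn -0.86, Rad54l -0.84, Fanca -0.75 and Brca1 -0.70. Every G2/M value of these 8 genes lay below every S-phase value, which the rule for a call makes likely. The share of all genes without overlap was not taken. Fancd2 leaned the other way, at 17.3, 20.9, 16.1 and 15.3 CPM in G2/M cells, against 13.2, 16.2, 13.6 and 11.4 CPM in S phase, a ratio of 0.36 that did not meet the rule, and Rad52 had 0.38. Over the 13 members with no call in any phase comparison of uncommitted cells (Rad51d, Rad52, Nbn, Fancc, Fance, Fancf, Fancl, Atr, Atrip, Rad9a, Rad1, Hus1 and Rad17), median S over resting ratios ran between -0.40 for Rad52 and 0.83 for Nbn.

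**Figure D2:**
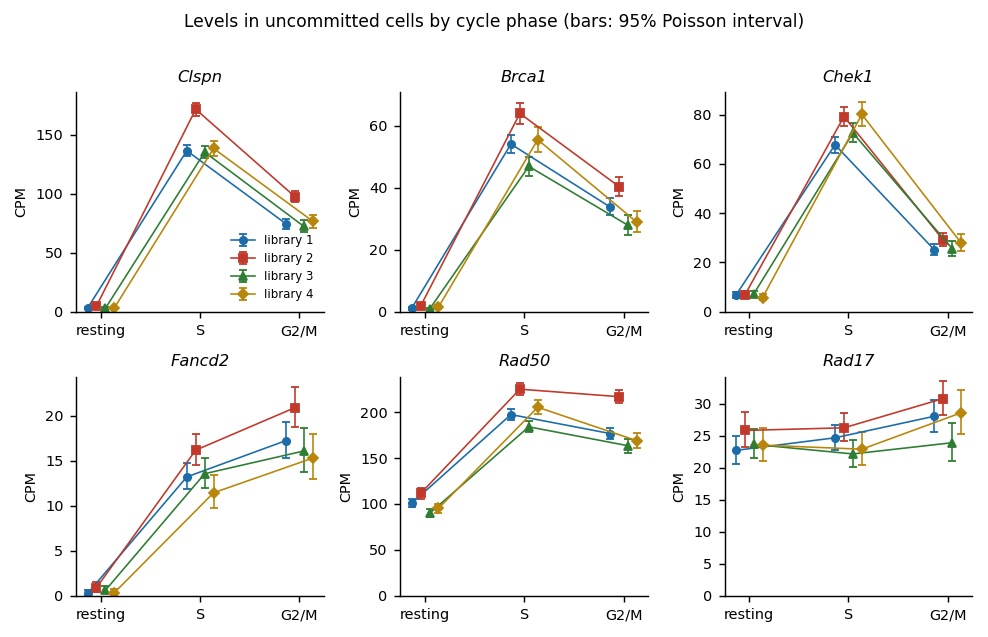
CPM of 6 members (a panel each, vertical axis from 0) in resting, S and G2/M uncommitted cells (horizontal axis), with a line per library and bars for the 95% Poisson interval, which covers counting error only. Chek1 lies at 25.1 to 29.0 CPM in G2/M, against 67.8 to 80.1 CPM in S phase, and Rad17 lies at 22.2 to 26.2 CPM in S phase, against 22.7 to 25.8 CPM in resting cells.

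Among the members measured, a rise in S phase recurred in each lineage with enough cells. Of the members measured, 12 of 15 were higher in S-phase than in resting cells of the stem gate, 20 of 32 in lymphoid progenitors, 4 of 4 in B precursors, 11 of 18 in monocytes, 6 of 6 in erythroid cells and 13 of 19 in megakaryocytes, and none was lower in any. The shares of all measured genes that were higher were 9.85%, 8.55%, 24.3%, 15.1%, 11.4% and 7.18% in the same order, and those that were lower were 2.54%, 4.94%, 12.8%, 11.7%, 4.73% and 2.78%. The stem gate was read at a minimum of 20 cells, since library 3 held 27 of its S-phase cells, and few members could be measured where resting cells were rare. A member low in resting cells passed the abundance minimum there through its S-phase level. The counts of 4 of 4 and 6 of 6 thus describe a selected few and not the set. With no minimum, 20 of 39 members were higher in erythroid cells. Clspn, Topbp1 and Tipin were higher in 7 of 7 lineages, uncommitted cells included, and the median log2 ratio of Clspn lay between 4.19 in megakaryocytes and 6.01 in monocytes. Brca1, Brip1, Chek1, Timeless and Mre11a were higher in 5 of 5 lineages, Brca2 and Blm in 6 of 6, and Rad50 in 6 of 7. Atr and Rad17 were called in 0 of 5 lineages, Rad1 and Rad51d in 0 of 4 and Nbn in 1 of 5, so the uncalled genes of uncommitted cells were mostly uncalled elsewhere.

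In G2/M, 7 of 9 measured members were higher than in resting cells of the stem gate, 20 of 34 in lymphoid progenitors, 3 of 3 in B precursors, 8 of 14 in monocytes, 3 of 4 in erythroid cells and 5 of 14 in megakaryocytes. The shares of all measured genes that were higher were 9.07%, 6.34%, 22.2%, 11.3%, 6.38% and 6.43% in the same order, and those that were lower were 2.11%, 2.84%, 10.2%, 7.36%, 1.5% and 2.29%. No member was lower in any of these 6 lineages. As in S phase, a member low in resting cells passed the minimum through its level in cycling cells. The monocyte calls included Atr, at 39.9, 55.0, 41.3 and 39.97 CPM in G2/M, against 19.5, 27.2, 11.7 and 21.1 CPM in resting cells, a log2 ratio of 0.99 from 8 to 15 UMIs per library in resting cells. Without library 3, which held the fewest cycling stem-gated cells, 13 of 23 members were higher in the stem gate, and without library 2, 9 of 21 were higher in megakaryocytes.

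At a matched phase, few members were called between lineages. Across 7 lineages in S phase, 232 member values were measured against uncommitted S-phase cells, and 0 were higher and 5 lower. Among all measured genes, 1.03% to 4.95% were higher and 0.296% to 12.6% lower, depending on the lineage, so few calls are not particular to the set. No member was called in the stem gate (18 measured), lymphoid progenitors (36) or megakaryocytes (38), where 0.296%, 2.36% and 4.12% of all measured genes were lower and 1.03%, 1.88% and 3.3% were higher. In the stem gate, ratios lay between -0.49 for Rad1 and 0.26 for Brca1 and Blm, from 27 to 94 cells per library, and 21 members could not be measured. A count of 0 is near the share over all genes there and says nothing particular to the set. Of the genes that led the S-phase response, Clspn had a ratio of 0.07 and Chek1 of -0.16.

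B precursors had 2 lower members of 34 in S phase, where 12.6% of all measured genes were lower and 4.95% higher, so the share of members that were lower was under that of genes at large. Both belong to the BCDX2 complex, of which Rad51c, below the minimum, went the other way with a median of 8.08 CPM in B precursors, against 4.53 CPM in uncommitted cells. Rad51b lay at 8.73, 13, 10.7 and 7.51 CPM in B precursors, against 19.1, 22.6, 20.3 and 19.8 CPM in uncommitted cells, a log2 ratio of -0.96. Rad51d lay at 8.18, 10.5, 10.1 and 4.29 CPM in B precursors, against 17.9, 18.1, 17.2 and 16.8 CPM in uncommitted cells, a ratio of -0.89. The B precursor values rest on 14 to 20 UMIs for Rad51b and 8 to 19 for Rad51d. Clspn leaned higher without meeting the rule, at 217, 299, 210 and 196 CPM in B precursors, against 136, 171, 135 and 138 CPM in uncommitted cells, a ratio of 0.65. Median S scores without histone genes, in UMIs per 10000, were 62.9 to 66.7 in these B precursors, against 45.9 to 50.6 in uncommitted cells. With cells matched on the S score the ratio of Rad51b was -1.04 and its call was lost, that of Rad51d was kept at -0.89, and Brca2 and Atr were called lower. That matching used the score with histone genes, so the difference in the score without them was not itself matched. The Rad51d call was lost with a pseudocount of 5 CPM (-0.69) and under stricter phase cuts (-1.13).

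Myeloid cells had a lower level of Brca2 in S phase. In granulocytes it lay at 61.0, 82.0, 59.9 and 49.6 CPM, against 97.9, 129, 92.1 and 94.3 CPM in uncommitted cells, a log2 ratio of -0.66, and it was the single lower member of 38, where 9.94% of all measured genes were lower and 4.21% higher. Monocytes held Brca2 at 55.0, 78.2, 56.0 and 57.8 CPM, against the same uncommitted values, a ratio of -0.71, and again it was the single lower member of 38, where 9.6% of genes were lower and 4.56% higher. Both groups lay below all 4 uncommitted values, which the rule for a call makes likely, and the share of all genes that did so was not taken. The monocyte gate holds granulocyte transcripts, as given above, so both comparisons are not independent, and they share the same uncommitted cells. Median S scores without histone genes were 35.8 to 40.9 in granulocytes and 41.4 to 45.6 in monocytes, both below uncommitted cells. With cells matched on the S score the ratios were -0.59 in granulocytes and -0.73 in monocytes, and neither met the rule in all 4 libraries. That matching used the score with histone genes. Its medians were 70.4 to 95.8 in granulocytes and 68.4 to 104 in monocytes, against 64.6 to 67.9 in uncommitted cells. The difference in the score without histone genes was therefore not itself matched, and its part was not tested. Both calls were also lost with all other cells as the other side (-0.57 and -0.61) and under phase cuts without histone genes (-0.57 and -0.64), and that of granulocytes with a pseudocount of 5 CPM (-0.63) and without double-gated cells (-0.60). Erythroid cells had a lower level of Brip1, at 30.5, 36.1, 31.4 and 31.0 CPM, against 49.2, 65.3, 48.6 and 53.4 CPM in uncommitted cells, a ratio of -0.72, the single lower member of 30, where 6.63% of genes were lower and 3.63% higher. That call was lost on matching (-0.65), with a pseudocount of 5 CPM (-0.65), with all other cells as the other side (-0.65) and under phase cuts without histone genes (-0.63).

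**Figure D3:**
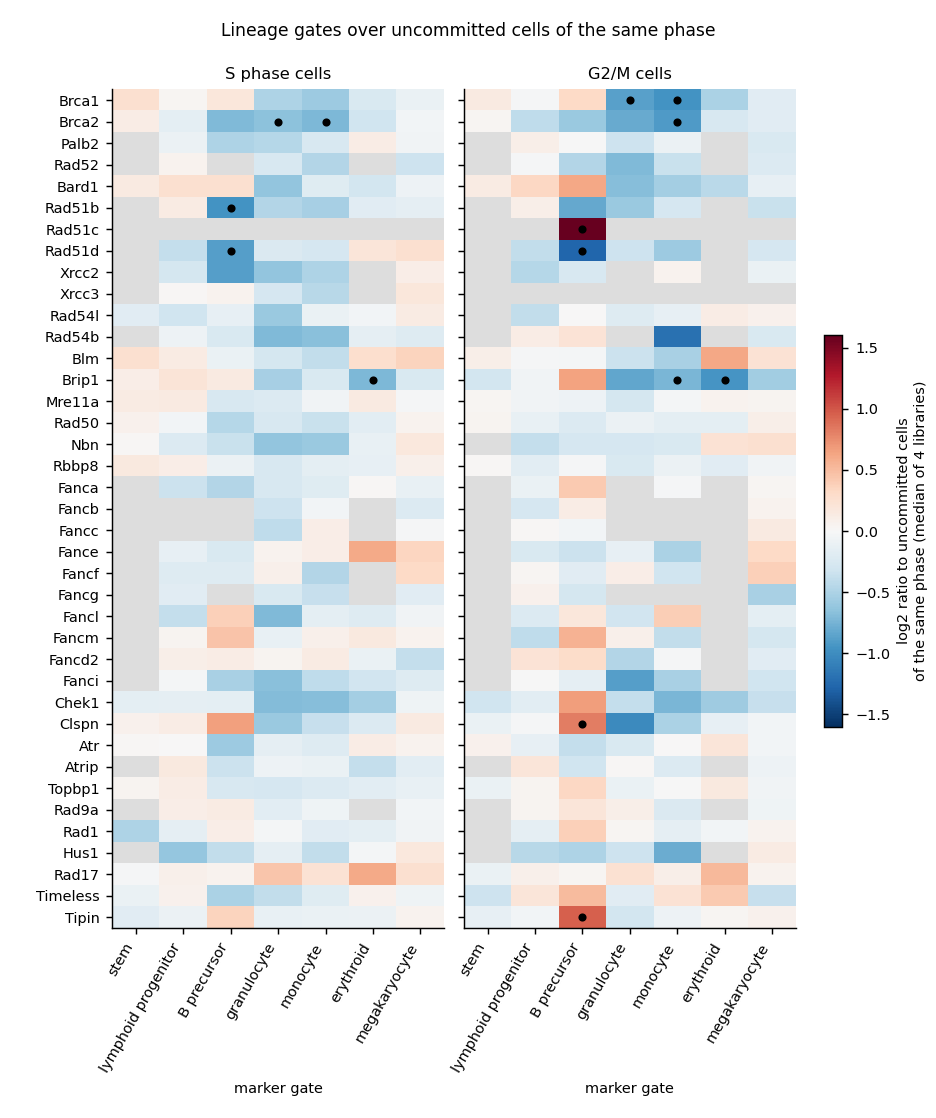
Median log2 ratio over the 4 libraries (colour) of each member (vertical axis) in each marker gate (horizontal axis) over uncommitted cells of the same phase, one panel each for S phase and G2/M, with grey cells where a member was not measured and black dots on members called. The dots are few, and the G2/M column of B precursors shows Rad51c at 1.59 and Rad51d at -1.27.

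In G2/M, 210 member values were measured, and 3 were higher and 6 lower. Among all measured genes, 1.3% to 6.07% were higher and 0.471% to 15.2% lower, depending on the lineage. B precursors held all 3 higher members among 38 measured, where 6.07% of all measured genes were higher and 15.2% were lower. Rad51c lay at 6.38, 10.6, 8.35 and 10.6 CPM in B precursors, against 1.94, 2.18, 3.35 and 2.03 CPM in uncommitted cells, a log2 ratio of 1.59 from 20 to 26 UMIs per library in B precursors. It passed the abundance minimum through its level in B precursors alone, so it could be measured only because it was high there. Clspn lay at 141, 159, 121 and 148 CPM in B precursors, against 74.3, 97.3, 72.1 and 76.4 CPM in uncommitted cells, a ratio of 0.82. Tipin lay at 183, 180, 195 and 196 CPM in B precursors, against 94.3, 92.6, 103 and 90.3 CPM in uncommitted cells, a ratio of 0.95. For each of the 3 genes, all B precursor values lay above all uncommitted values, which the rule for a call makes likely. How many of all genes did so was not counted. Rad51d was lower, at 6.68, 7.92, 9.18 and 6.93 CPM in B precursors, against 18.1, 19.8, 20.0 and 20.5 CPM in uncommitted cells, a ratio of -1.27.

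The G2/M class of B precursors also scored higher for S phase. Median S scores without histone genes were 40.9, 44.3, 39.1 and 43.5 in B precursors of libraries 1 to 4, against 15.9, 18.2, 15.9 and 16.6 in uncommitted cells, and 78.9% of B precursor G2/M cells reached 30, against 20.8% of uncommitted ones. Among cells with a score of 30 or more on both sides, a comparison chosen after seeing the data, Rad51c had a ratio of 0.70, Tipin 0.30, Clspn -0.08 and Rad51d -1.12, and none of the 4 calls was kept. The ratio of Clspn was thus near 0 there, while Rad51d stayed lower by more than 1.5-fold in its median. That comparison held 106 to 165 B precursors and 114 to 256 uncommitted cells per library. By size alone, each of the 4 calls was kept in 13 of 14 alternatives. Matching on the G2/M score was 1 of these, and it does not match the S score. Rad51c was not among the members called under stricter phase cuts or without the highest 8% of Scrublet scores.

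Lower levels in G2/M involved Brca1, Brca2 and Brip1. Granulocytes held Brca1 at 16.2, 22.3, 16.6 and 14.7 CPM, against 33.7, 40.3, 27.8 and 28.8 CPM in uncommitted cells, a log2 ratio of -0.87, 1 lower member of 31 where 5.57% of all measured genes were lower and 3.4% higher. In monocytes 3 of 34 members were lower, where 6.84% of genes were lower and 4.63% higher. Brca1 lay there at 13.8, 24.5, 11.4 and 18.7 CPM, against the uncommitted values just given, a ratio of -0.96. Brca2 lay at 35.8, 50.7, 36.0 and 36.4 CPM in monocytes, against 68.2, 89.8, 70.6 and 68.9 CPM in uncommitted cells, a ratio of -0.91. Brip1 lay at 18.7, 30.6, 21.1 and 24.0 CPM in monocytes, against 35.3, 48.9, 36.8 and 39 CPM in uncommitted cells, a ratio of -0.73. Brip1 was also the single lower member of 18 in erythroid cells, at 17, 26.1, 17.2 and 24.2 CPM with a ratio of -0.95, where 3.91% of genes were lower and 2.74% higher, from as few as 21 cells in 1 library. In all 5 of these comparisons the lineage and uncommitted values did not overlap. The rule for a call makes that likely, and the share of all genes without overlap was not taken. Under phase cuts that leave out histone genes, chosen after seeing the data, the granulocyte and monocyte ratios lay between -0.47 and -0.82 and none of those 4 calls was kept. The monocyte Brca1 call was also lost with a pseudocount of 5 CPM, under a stricter lineage cut and with cells matched on the G2/M score. Stricter phase cuts left too few granulocytes, monocytes and erythroid cells to be read, and score matching could not be run in granulocytes or erythroid cells.

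The stem gate (15 measured), lymphoid progenitors (37) and megakaryocytes (37) had no member called in G2/M, where 0.471%, 3.21% and 5.19% of all measured genes were lower and 1.3%, 2.82% and 3.12% were higher. List medians at a matched phase can be set beside those of all genes. In S phase they were -0.32 in granulocytes, with a range of -0.53 to -0.21 over libraries, against -0.18 over all genes, -0.25 in monocytes, against -0.16, and -0.17 in B precursors, against -0.19. In G2/M the B precursor median was 0.086, with a range of 0.019 to 0.12 over libraries, against -0.20 over all genes. In resting megakaryocytes it was 0.25, with a range of 0.15 to 0.46, against 0.02 over all genes.

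**Figure D4:**
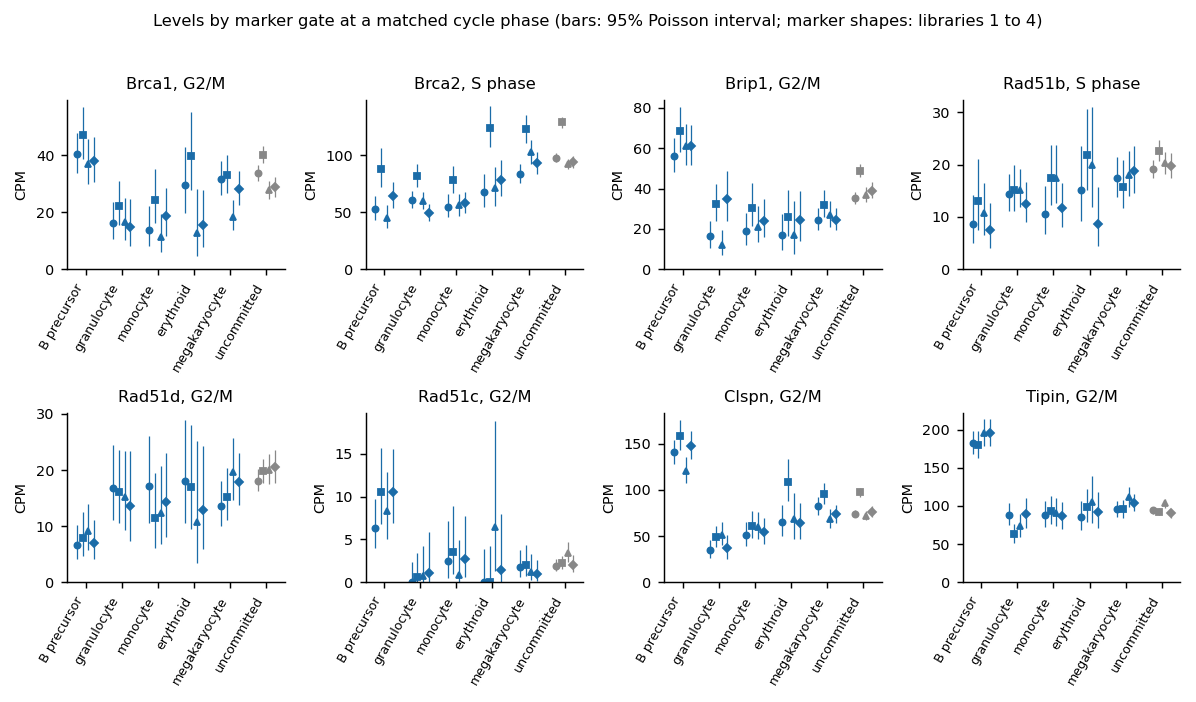
CPM (vertical axis from 0) of named members by marker gate (horizontal axis) in S-phase or G2/M cells, with 4 points per gate for libraries 1 to 4 and bars for the 95% Poisson interval, which covers counting error only. In S phase, Brca2 in granulocytes (49.6 to 82.0 CPM) and monocytes (55.0 to 78.2 CPM) lies below uncommitted cells (92.1 to 129 CPM).

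Among resting cells the low level of most members left 87 values to measure over 9 lineages, of which 2 were higher and 15 lower. Of the lower values 13 belong to plasma cells, where 76.1% of all measured genes were lower. In the other lineages 1.83% to 20.2% of all measured genes were lower, and over all lineages 1.32% to 12.2% were higher. In the stem gate, Timeless was the single lower member of 23, at 4.24, 4.47, 3.13 and 3.57 CPM, against 8.93, 8.63, 9.16 and 5.88 CPM in uncommitted cells, a log2 ratio of -0.87, where 1.83% of all measured genes were lower and 3.41% higher. Chek1 had a ratio of -0.75 and Tipin of -0.40 there, neither meeting the rule. The stem-gated median S score without histone genes lay between 4.58 and 5.20 over libraries, against 5.66 to 6.27 in uncommitted cells, and its part in the result was not tested by matching. The Timeless call was lost in 5 of 14 alternatives: stricter phase cuts (-0.51), a pseudocount of 5 CPM (-0.56), phase cuts without histone genes (-0.84), leaving out the highest 8% of Scrublet scores (-0.99) and a stricter lineage cut (-1.17).

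Resting monocytes had a higher level of Fancl, the Fanconi ubiquitin ligase, at 25.5, 39.8, 24.8 and 22.7 CPM, against 11.9, 12.4, 13.5 and 12.1 CPM in uncommitted cells, a log2 ratio of 0.94 from 14 to 22 UMIs per library. It was the single higher member of 10, where 7.25% of all measured genes were higher and 6.52% lower. Fancl passed the abundance minimum through its level in monocytes, so it could be measured only because it was high there. Its ratio lay between 0.77 and 1.07 over the alternatives. It was not among the members called under stricter phase cuts, under a stricter lineage cut or without double-gated cells, where 3, 7 and 7 members were measured. Resting dendritic cells had a higher level of Rbbp8, at 35.3, 84.9, 53.5 and 55.3 CPM, against 18.6, 23.1, 17.7 and 20.2 CPM in uncommitted cells, a ratio of 1.48. Tipin was lower in the same cells, at 18.8, 16.6, 15.3 and 12.5 CPM, against 30.3, 34.6, 36.4 and 30.2 CPM in uncommitted cells, a ratio of -1.11, and this call was lost with a pseudocount of 5 CPM (-0.94) and under a stricter lineage cut (-0.73). In dendritic cells 6 members were measured, and 12.2% of all measured genes were higher and 20.2% were lower.

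Plasma cells, which secrete antibody, had lower levels of all 13 members measured, but 76.1% of all measured genes were lower in them and 4.89% higher, and the list median of -1.62 lay near the -1.51 of all genes. Topbp1 lay at 9.86, 12.8, 6.22 and 8.38 CPM in plasma cells, against 46.2, 54.8, 42.4 and 45.6 CPM in uncommitted cells, and Rad50 at 28.8, 29.3, 20.4 and 19.3 CPM, against 101, 111, 89.8 and 95.2 CPM. Atr lay at 4.55, 11.9, 9.61 and 8.06 CPM in plasma cells, against 25.7, 39.7, 28.9 and 27.3 CPM, and Tipin at 12.9, 11.9, 8.48 and 8.06 CPM, against 30.3, 34.6, 36.4 and 30.2 CPM. Groups did not overlap for these 4 genes, which the rule for a call makes likely, and the share of all genes without overlap was not taken. Mre11a lay at 6.07, 10.1, 5.66 and 7.74 CPM in plasma cells, against 19.6, 26.1, 21.7 and 22.5 CPM in uncommitted cells. Hus1 lay at 3.03, 5.49, 2.83 and 4.19 CPM, against 16.3, 19.6, 13.2 and 14.4 CPM. Nbn and Rad1, at 2.74 to 5.31 CPM and 2.74 to 6.83 CPM in plasma cells, against 16.9 to 25.3 CPM and 15.7 to 16.8 CPM, rest on as few as 3 UMIs in 1 library.

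No member was called among resting lymphoid progenitors (21 measured), B precursors (1), erythroid cells (2), megakaryocytes (9) or T, NK or ILC cells (2). There 4.18%, 5.29%, 2.14%, 2.06% and 3.13% of all measured genes were lower, and 3.34%, 9.36%, 1.86%, 1.32% and 5.49% were higher. Megakaryocyte ratios leaned upward for Tipin at 0.67 and Topbp1 at 0.54, with the values of Tipin running between -0.17 and 0.99 over libraries.

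A list of 41 other genes of the same pathways was read in the same way in uncommitted cells. Of 39 measured, 22 were higher in S phase than in resting cells and none was lower, where 9.29% of all measured genes were higher and 8.8% lower, with a median log2 ratio of 1.17. The largest by the named-gene rule were Rad51ap1 at 5.0, the resection nuclease Exo1 at 4.0, the nuclease subunit Eme1 at 3.90 and Rmi2, a subunit of the complex that works with Blm, at 3.03. Between G2/M and S phase, 3 of 40 were higher and 9 lower, where 4.04% of all measured genes were higher and 3.74% lower, among them Dbf4, an activator of replication origins, at 1.39, and Dna2, a resection nuclease, at -1.27. In B precursor G2/M cells 5 of 37 were higher, among them Rmi2 at 1.08, and Rfc3, a clamp loader subunit, at 0.98, and 1 was lower, where 6.07% of all measured genes were higher and 15.2% lower.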

How the data were processed

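Donor bone marrow HSPCs were profiled by droplet 3' single-cell RNA sequencing, per the labels' protocols. The deposited values are raw UMI counts per gene and cell in 1 aggregated matrix, made by the authors on mm10, per the submitters' processing notes, by Cell Ranger version 6.1.2, which the file headers give. Counting of strands and introns was not given in the sources used here. All per-sample columns were used, so the number left unused is 0.

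Of 44151 barcodes, 41122 passed filters of 500 genes or more and no more than 10% of UMIs from mitochondrial genes. Scores were list UMIs per 10000 UMIs. Resting cells scored under 20 for S and under 4 for G2/M. S-phase cells scored at least 40 for S and under 50 for G2/M, and G2/M cells at least 50 for G2/M. Lineage gates required a mean capped marker z score of 0.5 and 3 detected markers. Cells passing the gates of neighbouring lineages were given to 1 of them, and 1664 other double-gated cells were left out. Phase cuts were set from the scores after these were seen, and G2/M was raised to 50 then. Scrublet, run in Scanpy 1.11.5 at an expected 8%, marked 1 cell and so did not work, and no doublets were removed.

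UMIs were summed per library, gate and phase and scaled to CPM, with a pseudocount of 1 CPM. A gene was measured with a mean of at least 5 CPM and 10 expected UMIs in the smallest class, in classes of at least 30 cells, or 20 for the stem S, stem G2/M and erythroid G2/M comparisons added after seeing the data. Called means 1.5-fold in the same direction in 4 of 4 libraries, a rule of size with no test. Named with values per library are members called between lineages (at most 8 per comparison, by the library closest to no change) and the 6 highest and 6 lowest members for S over resting in uncommitted cells; other pathway genes are named at most 4 per comparison. A further gene of the pathway list is not reported here. Members and lists were chosen with earlier results of these data known. Of the members, 3 have exons overlapping a gene on the same strand (Rad54b, Atr and Atrip) and 19 on the opposite strand, so their counts are uncertain. The contrast code was tested on simulated data. Python 3.11.15, NumPy 2.4.6, SciPy 1.17.1, pandas 2.3.3 and matplotlib 3.10.9 were used. Alternatives covered the pseudocount, gene minimum, mitochondrial limit, gates, phase cuts, doublet scores, score matching and each library left out.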

Additional observations from a re-analysis of the deposited data

Results flagged for a closer look

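Fancl moved in opposite directions between resting and S-phase cells of different lineages. In monocytes it lay at 15.7, 19.2, 17.1 and 16.8 CPM in S phase, against 25.5, 39.8, 24.8 and 22.7 CPM in resting cells, lower in 4 of 4 libraries with a median log2 ratio of -0.59. In uncommitted cells it lay at 19.3, 20.9, 19.9 and 18.0 CPM in S phase, against 11.9, 12.4, 13.5 and 12.1 CPM in resting cells, higher in 4 of 4 libraries with a ratio of 0.59. In lymphoid progenitors it lay at 16.1, 14.4, 15.9 and 12.9 CPM in S phase, against 12.7, 13.9, 12.9 and 11.6 CPM in resting cells, higher in 4 of 4 libraries with a ratio of 0.21. The median ratios differed by 1.18 between uncommitted cells and monocytes and by 0.79 between lymphoid progenitors and monocytes. These differences were not tested, none of the 3 ratios met the 1.5-fold rule, and the resting monocyte values rest on 14 to 22 UMIs. The same resting monocyte values gave the Fancl call above, so both results are not independent.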

How the results depend on the processing

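No paired comparison of the genotypes was possible because no label ties a library to a sample, so samples of both genotypes could not be matched by replicate number. Ratios between classes of cells were taken within a library throughout, and no result comes from a test. Of 416 list medians recomputed under the alternatives, 346 moved by less than the spread between libraries and 70 by more. Several medians near 0 changed sign among the values below, and that of B precursors in G2/M, 0.086 in the report, was -0.32 among cells with a non-histone S score of 30 or more. Of 423 recomputed ratios of called members, 390 stayed within that spread, 32 moved and 1 changed sign to a value near 0 (Clspn in B precursor G2/M cells, -0.082 among cells with a non-histone S score of 30 or more). The cause was not tested where a median moved, and all values below are median log2 ratios over the measured members.

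With a gene minimum of 20 CPM, which measures fewer genes, ratios over uncommitted cells were 0.070 in resting lymphoid progenitors, -1.99 in resting plasma cells, 0.027 in resting monocytes, -0.065 in B precursors in S phase and 0.24 in G2/M, and -0.0015 in megakaryocytes in G2/M. S over resting ratios were then 2.13 in lymphoid progenitors, 1.70 in monocytes, 1.43 in megakaryocytes and 2.44 in uncommitted cells, the G2/M over resting ratio was 0.72 in megakaryocytes, and the G2/M over S ratio of uncommitted cells was -0.43. In uncommitted cells 13 of 17 members were then higher in S phase and 8 of 13 in G2/M. With no minimum, ratios over uncommitted cells were -1.36 in resting plasma cells, -0.42 in resting monocytes and -0.10 in erythroid cells in S phase. S over resting ratios were 1.75 in the stem gate, 1.64 in lymphoid progenitors, 1.65 in monocytes and 1.49 in erythroid cells, and G2/M over resting ratios were 1.38 in monocytes and 0.90 in megakaryocytes. In S phase 24 members of 39 were then higher in the stem gate, 21 in monocytes, 20 in erythroid cells and 24 in megakaryocytes.

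A pseudocount of 5 CPM gave -1.19 in resting plasma cells, S over resting ratios of 2.20 in the stem gate, 1.37 in lymphoid progenitors, 1.24 in monocytes, 1.14 in megakaryocytes and 1.03 in uncommitted cells, and a G2/M over resting ratio of 0.97 in uncommitted cells. Stricter phase cuts gave -0.49 in resting monocytes, -0.11 in erythroid cells in S phase, S over resting ratios of 2.04 in lymphoid progenitors and 1.79 in monocytes, and in uncommitted cells 1.24 for G2/M over resting and -0.34 for G2/M over S. Phase cuts without histone genes, chosen after seeing the data, gave -0.20 in monocytes in S phase, -0.017 in megakaryocytes in G2/M, S over resting ratios of 1.62 in lymphoid progenitors and 2.18 in monocytes, and in uncommitted cells 1.15 for G2/M over resting and -0.25 for G2/M over S. Score matching gave -0.32 in B precursors and 0.0073 in erythroid cells in S phase. A stricter lineage cut gave 0.40 in resting megakaryocytes, -0.16 in erythroid cells in S phase, and in megakaryocytes 1.5 for S and 0.80 for G2/M over resting. Leaving out all double-gated cells gave 1.5 and 0.82 for the same megakaryocyte ratios, and leaving out the highest 8% of Scrublet scores gave 1.44 and 0.75, with -0.026 for megakaryocytes over uncommitted cells in G2/M. A mitochondrial limit of 5% gave S over resting ratios of 1.65 in monocytes and 1.44 in megakaryocytes. With all other cells in place of uncommitted cells, ratios were 0.041 in the resting stem gate, 0.038 in resting lymphoid progenitors, and in S phase 0.13 in the stem gate, -0.18 in monocytes and 0.061 in megakaryocytes.

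Leaving out each library in turn gave -1.76 to -1.6 in resting plasma cells, -0.0097 to 0.067 in the stem gate in S phase and -0.095 to -0.043 in erythroid cells in S phase. S over resting ratios ran over 1.72 to 2.61 in the stem gate, 1.46 to 1.63 in monocytes and 1.14 to 1.47 in megakaryocytes, and the G2/M over resting ratio over 0.95 to 1.11 in monocytes. Several alternatives were not run for single comparisons because a class or score bin held too few cells, mostly for the stem gate, erythroid cells, and granulocytes and monocytes in G2/M. Small classes and members of a few CPM limit these data: where a class gave under 10 expected UMIs, a difference was not detectable at this depth.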

Other observations

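Library 2 held the highest level of most members. It was the highest of 4 for 16 of 22 members measured in resting uncommitted cells, 32 of 38 in S phase and 29 of 37 in G2/M, where it was the highest for 62.7%, 61.5% and 58.9% of all measured genes. Its median log2 ratio over the median of the other libraries was 0.26, 0.25 and 0.25 over the members, against 0.16, 0.14 and 0.14 over all genes. Across genes in S phase, that ratio ran with the genomic span of the gene, with a Spearman rho of 0.47 over 9484 genes and 0.45 over 38 members, as a description of genes that share libraries and are not independent. The part of gene span in the library difference was not tested further.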
